A study of Mus musculus with 4 samples.

Results

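Thymic epithelial cells were sought in droplet single-cell RNA sequencing of mouse thymocytes, as droplets that carried epithelial transcripts. A droplet was taken when its unique molecular identifiers (UMIs, the tags that count each captured transcript once) summed to at least 4 over Epcam, Krt5, Krt8, Krt14, Krt18, Psmb11, Aire and Ccl21a. It also had to hold no UMI of C1qa, C1qb and C1qc, which mark macrophages, and none of Cd79a, a B cell gene. Droplets with under 200 detected genes, under 500 UMIs or over 10% mitochondrial UMIs were left out first. Of 57354 deposited droplets, 37600 passed these filters and 261 held at least 4 epithelial UMIs. C1q transcripts took out 36 of them and Cd79a alone took out 3, which left 222 members. The members were chosen by their UMIs of the 8 epithelial genes. The levels of these genes, and how members differ from other droplets, are therefore given below as description without a test. Tests were made only between genotypes, on the member share, on Cd8b1 and Trbc1 relative to other droplets, and on summed counts.

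The study asked how loss of Tox4, which encodes a nuclear DNA-binding protein, changes T cell development. Thymocytes of 2 control mice (Tox4;F/F, both Tox4 alleles floxed) and 2 cKO mice (Tox4;F/F;Lck+, the same alleles with an Lck-Cre transgene) gave 1 library each. The control libraries are called control 1 and control 2 and the others cKO 1 and cKO 2, by their labelled replicate number. Per the study's methods, the mice were 6 to 8 weeks old on a C57BL/6 background, and controls were littermates. The proximal Lck promoter drives Cre in developing T cells, so epithelial cells of both groups carried floxed alleles that this transgene is not designed to delete. The labels call the material thymocytes, no sort for epithelium was made, and the tissue was passed through a cell strainer, with no digestion step given in the sources used here.

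Thymic epithelial cells form the stroma in which T cells mature. In the cortex they provide chemokines and Notch ligand to immature thymocytes and, through the thymoproteasome subunit encoded by Psmb11, cut the peptides used for positive selection of CD8 T cells. In the medulla, cells with Krt5 and Krt14 attract selected thymocytes with Ccl21a, and a subset with Aire transcribes tissue-restricted genes that serve to delete self-reactive T cells. FOXN1 is the transcription factor on which the epithelial programme of both compartments rests, and MHC class II is made in both.

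The members numbered 54 in control 1, 35 in control 2, 75 in cKO 1 and 58 in cKO 2. They carried 1384813 UMIs, between 249290 and 412156 per library. A member held a median of 1898 UMIs, with a range from 500 to 46709, and a median of 5 epithelial UMIs, with a range from 4 to 98. The median depth was 982.5 UMIs in control 1, 3250 in control 2, 945 in cKO 1 and 4301.5 in cKO 2. In the comparison droplets, which are the 27291 filtered droplets with no UMI of the 8 genes, C1q or Cd79a, the medians were 3473, 2931, 3261 and 2486. Members of the libraries numbered 1 were therefore shallower than the surrounding thymocytes, and those of the libraries numbered 2 were deeper. The same split ran through the mitochondrial filter, which removed 48.3% and 46.1% of the deposited droplets of control 1 and cKO 1, and 20.6% and 23.1% of those of control 2 and cKO 2. No barcode was shared between members of different libraries, although 348 barcodes occurred in at least 2 of the 4 libraries.

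The genes of the rule were checked one by one. Krt8 and Krt18 encode the paired keratins of simple epithelium, and they were the most widely detected: Krt18 in 143 and Krt8 in 137 of the 222 members, with 353 and 427 UMIs. Krt8 was found in 74.1% and 60.0% of members of the control libraries and in 61.3% and 51.7% of those of the cKO libraries, against 2.85% to 4.30% of the other filtered droplets. Both keratins were present in 111 members, which is 81.0% of those with Krt8 and 77.6% of those with Krt18. A rule that sums UMIs over the 8 genes favours such overlaps among them. Because depth differed, each droplet was also thinned to 500 UMIs. Krt8 then remained in 31.0% to 52.0% of members and in 0.634% to 1.64% of the others. Epcam, a cell adhesion molecule of epithelia, had 316 UMIs in 87 members.

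Psmb11, which lies on chromosome 14 from 54621433 to 54629556 (GRCm38, GENCODE M21), had 99 UMIs in 56 members. Its UMIs were 33 in control 1, 6 in control 2, 29 in cKO 1 and 31 in cKO 2. The members with a Psmb11 UMI made up 40.7% (exact 95% interval 27.6 to 55.0) in control 1, 8.57% (1.80 to 23.1) in control 2, 25.3% (15.99 to 36.7) in cKO 1 and 20.7% (11.2 to 33.4) in cKO 2. Control 1 was the highest and control 2 the lowest, so both extremes were control libraries. Among the other filtered droplets, 1.01% to 2.09% held a Psmb11 UMI. Of the 56 members with Psmb11, 53 also held Krt8 or Krt18.

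Ccl21a, the chemokine that draws positively selected thymocytes into the medulla, had 223 UMIs in 47 members, with 31, 27, 71 and 94 UMIs in control 1, control 2, cKO 1 and cKO 2. A single cKO 2 droplet supplied 48 of the 94. The counts fell on the copy at chromosome 4 from 42772860 to 42773993, and its near-identical neighbours share reads with it, so its level is uncertain. Aire, the regulator of tissue-restricted genes, had 38 UMIs in 19 members: 10 in control 1, 15 in control 2, 1 in cKO 1 and 12 in cKO 2. Every one of these 19 members held Krt8 or Krt18, an overlap that the sum of 4 UMIs also favours. Aire and Ccl21a were found together in 1 member, and Aire and Psmb11 in 1. Krt5 and Krt14, the keratins of basal and medullary epithelium, were sparse, with 44 UMIs in 23 members and 33 UMIs in 25 members.

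**Figure D1:**
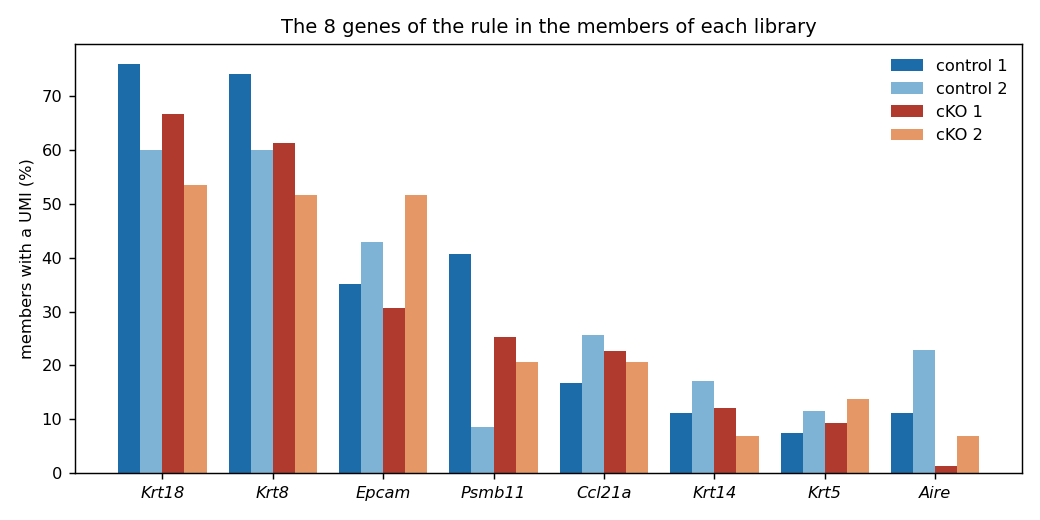
Percentage of members with at least 1 UMI of each gene of the rule (vertical axis) for each library (bars: control 1, control 2, cKO 1 and cKO 2; no error bars are drawn, and the members per library are 54, 35, 75 and 58). Krt18 and Krt8 were the most widely detected, and Psmb11 ranged from 8.57% in control 2 to 40.7% in control 1.

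The cortical programme was followed to its regulatory sequence, because FOXN1 is known to bind the letters GACGC. Both strands of the 250 bases before the RefSeq transcription start were searched (GRCm38.p6). Of the 13 cortical genes used below, 10 had an entry and 5 of these held a match, as did 2 of the 6 medullary genes with an entry. Of all 27025 genes with an entry, 24.8% held a match (22.6% of the 32851 entries). Of the 8 genes of the rule, Psmb11 and Aire did. The matches in Psmb11, which separates cortical from medullary cells, and in the 3 best detected cortical genes that held one, Ccl25, Cxcl12 and Pax1, are shown with their flanks, 5′ to 3′ along the gene, with the motif in capitals. GCGTC is the same motif on the opposite strand. The motif begins 239 and 62 bases before the start in Psmb11, 56 in Ccl25, 62 in Cxcl12 and 86 in Pax1. A match is a description of the sequence, not a measured binding site.
Psmb11, chr14:54625060-54625088: gctgacaggtgGCGTCttcagagtgtagg
Psmb11, chr14:54625236-54625264: agcttctccacaGCGTCctcctcctcctc
Ccl25, chr8:4325142-4325170: ctttgaagaagcGACGCtcattggttggc
Cxcl12, chr6:117168461-117168489: cgcaggggatgcGCGTCagagaccccagc
Pax1, chr2:147364896-147364924: ggcggggaggggGACGCcaggctcggtga

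Cortical genes outside the rule were abundant in the members. Of 13 listed genes, 12 were detected and all 12 were above the comparison droplets, 9 of them in each of the 4 libraries. The median ratio of the 13 to the comparison droplets was 12.6, and 183 of the 222 members held a UMI of the list. Tbata, a gene of cortical epithelium, had 601 UMIs in 127 members. Its level was 477 UMIs per 1000000 (CPM) in control 1, 209 in control 2, 575 in cKO 1 and 403 in cKO 2, against 20.3 to 39.4 in the comparison droplets. Ctsl, the cathepsin that cuts peptides for MHC class II in the cortex, reached 503 CPM over all members and 172 in the comparison droplets, but in control 2 it equalled the comparison level, at 201 against 200.1 CPM. Ccl25, the chemokine that attracts early thymocytes, stood at 167 CPM against 27.7, and Prss16, the thymus-specific serine protease, at 77.3 CPM against 5.0. These 3 levels rested in part on cKO 2, without which Ctsl stood at 271 CPM, Ccl25 at 111 and Prss16 at 36.0. Foxn1 itself was near the limit of detection, with 12 UMIs in 8 members, and Dll4, the Notch ligand of the cortex, had none in the members, which allows up to 2.17 CPM (3 of 1384813 UMIs, counting error only).

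Each of 5 cortical genes was found in a larger share of the members with Psmb11 than of all members. Tbata was found in 49 of the 56 members with Psmb11 (87.5%, against 57.2% of all members), Ccl25 in 27 (48.2% against 31.5%), Pax1 in 21 (37.5% against 18.5%), Prss16 in 14 (25% against 14.4%) and Cxcl12 in 11 (19.6% against 9.91%). Of the 19 members with Aire, 11 held Tbata (57.9%), 5 held Pax1 (26.3%), 3 held Ccl25 (15.8%), 3 held Prss16 (15.8%) and none held Cxcl12, so Tbata and Prss16 lay near their share of all members and Pax1 above it. These overlaps depend on the depth of each droplet and carry no test.

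Genes of the medullary programme outside the rule were lower in level but also above the comparison droplets. All 10 listed genes were detected and 9 were above the comparison droplets, 7 of them in each library. Krt17, a keratin of stratified epithelium, had 172 UMIs in 56 members, at 124 CPM against 3.7. Ccl19, a ligand of CCR7, had 76 UMIs in 27 members, at 54.9 CPM against 1.7. Fezf2, a second regulator of tissue-restricted genes in the medulla, had 37 UMIs in 22 members, at 26.7 CPM against 0.5. Ccl19 was present in 12 and Fezf2 in 11 of the 19 members with Aire, and in 1 and 4 of the 56 members with Psmb11.

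Among regulators, 11 of 12 listed transcription factors were detected. Aire is a gene of the rule and so has no UMI in the comparison droplets, and the other 10 were above them in summed level. In each of the 4 libraries, 6 were above them, Aire included. Relb was below them in control 1, at 5.99 CPM against 16.7. Pax1, needed for the early thymic rudiment, had 56 UMIs in 41 members and stood at 40.4 CPM against 3.4. Pax9, its close relative, had 12 UMIs in 12 members. Hoxa3 was not detected. Of the proteasome subunits, Psmb5, Psmb6, Psmb7 and Psmb8 stood at 1.1 to 1.2 times the comparison level, Psmb9 at 1.7 and Psmb10 at 2.0 times. Psmb11 had no UMI in the comparison droplets, since the rule left out every such droplet, so it has no ratio.

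MHC class II presentation genes were high but very unevenly spread. Ctsl is counted in this list and in the cortical list. All 12 were above the comparison droplets, with a median ratio of 8.03. Cd74, the invariant chain, had 3118 UMIs in 122 members, at 2332 CPM in control 1, 1320 in control 2, 1768 in cKO 1 and 3208 in cKO 2. H2-Aa reached 955 CPM, H2-Ab1 987 and H2-Eb1 850. Of the 8127 UMIs of the list, 5480 (67.4%) came from 5 members, and 27 members had none. The first 4 of these 5 were deep, with 16201 to 20173 UMIs, and held 1139 to 1436 MHC class II UMIs each, 8 to 35 UMIs of the dendritic cell list and no more than 4 UMIs of the cortical list. Their epithelial UMIs were 4 to 23, nearly all Epcam, which dendritic cells can also express. These 5 members together carried 106 of the 141 dendritic cell UMIs. The summed level was 5869 CPM with these 5 members and 2026 without them, against 596 in the comparison droplets and 6860 in 819 droplets with at least 4 C1q UMIs. The part of dendritic cells in the MHC class II values was not tested.

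The fifth of them was a different droplet, from cKO 2, with 3985 UMIs. Of its 344 MHC class II UMIs, 257 were Ctsl and 87 came from the other genes of the list, so it stands among the 5 only through Ctsl. Without Ctsl, the first 4 members held 5134 of the 7430 UMIs of the list (69.1%). It held 98 epithelial UMIs, the most of any member, made up of 48 Ccl21a, 21 Krt8, 18 Krt18, 8 Psmb11 and 3 Krt5. It also held 68 UMIs of Ccl25, 66 of Tbata, 42 of Prss16 and 3 of Foxn1, and no UMI of Cd8b1 or Trbc1. Of the 1806 cortical UMIs of all members, 452 (25.03%) lay in this droplet. Without it, the cortical level of cKO 2 was 992 CPM in place of 2079.

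To describe how members differed, they were divided by the rule genes they held, a division chosen after the values were seen. Medullary genes (Krt5, Krt14, Aire or Ccl21a) without Psmb11 were held by 68 members, Psmb11 without medullary genes by 44, and both by 12. Krt8 or Krt18 without any of these was held by 58, and Epcam alone by 40. Median depth was 821 UMIs with Psmb11, 719.5 with both, 1272.5 with medullary genes, 1394 with Krt8 or Krt18 and 13947 with Epcam alone. No member with Epcam alone had 2000 UMIs or fewer, and 25 of the 40 had over 10000. The Epcam-alone members were 18.0% of the members and carried 47.5% of the UMIs.

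**Figure D2:**
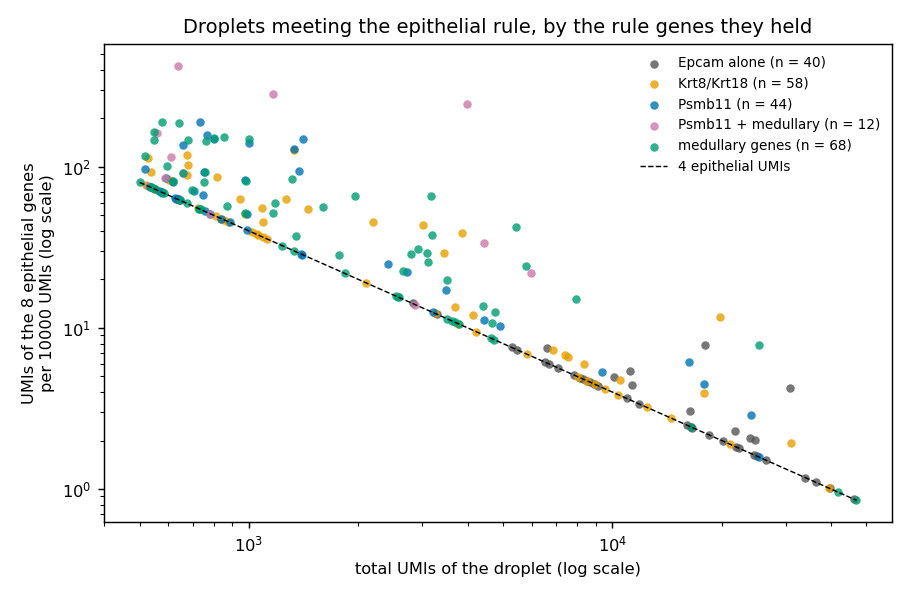
Total UMIs of each of the 222 members (horizontal axis, log scale) against the UMIs of the 8 epithelial genes per 10000 UMIs (vertical axis, log scale). Each point is 1 droplet coloured by the rule genes it held, and the dashed line marks 4 epithelial UMIs, the lowest number a member can have; the 40 droplets with Epcam alone lie at the deep, thinly epithelial end.

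Epithelial density followed this division. A median member with Psmb11 had 62.9 epithelial UMIs per 10000, with both 88.0, with medullary genes 54.6, with Krt8 or Krt18 38.4 and with Epcam alone 3.94. The 112 members with 2000 UMIs or fewer held 6.8% of all member UMIs and had cortical genes at 11008 CPM, medullary genes at 1286 and MHC class II genes at 13006. The 42 members with over 10000 UMIs held 68.3% of the UMIs and had cortical genes at 110 CPM and medullary genes at 41.2. Their MHC class II genes stood at 5837 CPM, above the 4008 of the 68 members between these depths. Sums over all members therefore weigh the droplets with the least epithelial RNA most.

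The droplets with Epcam alone held little cortical RNA. Their cortical genes stood at 95.7 CPM, below the 251 of the comparison droplets, and Prss16, Cxcl12 and Foxn1 had no UMI in them, which allows up to 4.56 CPM each. Their medullary genes stood at 117 CPM, of which a single cKO 2 droplet held 52 UMIs, and at 38.2 without it, against 14.6 in the comparison droplets. Their 25 leading genes by ratio to the comparison droplets were headed by Cd74 and H2-Eb1. Also among the 25 were Il2ra, which encodes CD25, and the T cell receptor gamma constant genes Tcrg-C1, Tcrg-C2 and Tcrg-C4. Ptcra, the pre-T cell receptor chain, Hes1, a Notch target, and Cdk6 were there as well. A list of 7 genes (Cdk6, Tcrg-C2, Tcrg-C1, Myl10, Gm4632, Il2ra and Hes1), called the early thymocyte genes here, was taken from the leading genes of this class after their values were seen, so its height in this class was fixed by the choice. It stood at 2307 CPM, against 259 in the comparison droplets, and 37 of the 40 droplets held it. Among droplets with over 10000 UMIs, 24 of 25 with Epcam alone (96%) and 75.5% of 2177 comparison droplets held it. Cd8b1 stood at 6.2% of the comparison level and Ptcra at 415%. A separate 3 droplets held 2641 of the 2722 MHC class II UMIs of this class, and none of those 3 held 5 or more UMIs of the 7 genes. With cortical genes below the comparison level, the class is named by Epcam and not as epithelial cells, and values without it are given where they change a result. It was not uniform, since the cKO 2 droplet with 52 medullary UMIs had no UMI of the 7 genes and held keratinocyte genes.

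Summed, the other 182 members had cortical genes at 2398 CPM, medullary genes at 392 and MHC class II genes at 7437. Of their 5405 MHC class II UMIs, 2810 lay in 2 of the 4 members with the most, and without those 2 the level was 3756 CPM. The class was mixed: 28 of the 182 held no UMI of the cortical list, and 48 held early thymocyte genes, which stood at 854 CPM against 259 in the comparison droplets. Members with Psmb11 had cortical genes at 3614 CPM and medullary genes at 106, and members with medullary genes but no Psmb11 had 1018 and 732. The 12 members with both had cortical genes at 26991 CPM, and at 8670 without the cKO 2 droplet described above. Among the leading genes of the Psmb11 members were Tbata, H2-Aa, Cd74, Fabp5, Fxyd2 and Cstb. Their MHC class II level, 12259 CPM, was 2353 without the cKO 2 droplet that held the most MHC class II UMIs. Leading genes of the medullary members were Ubd, Mt1, S100a14, Fabp4 and Cd74. The members with Krt8 or Krt18 held Tbata in 32 and Ccl25 in 20 of 58 droplets, and had the early thymocyte genes at 1366 CPM.

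**Figure D3:**
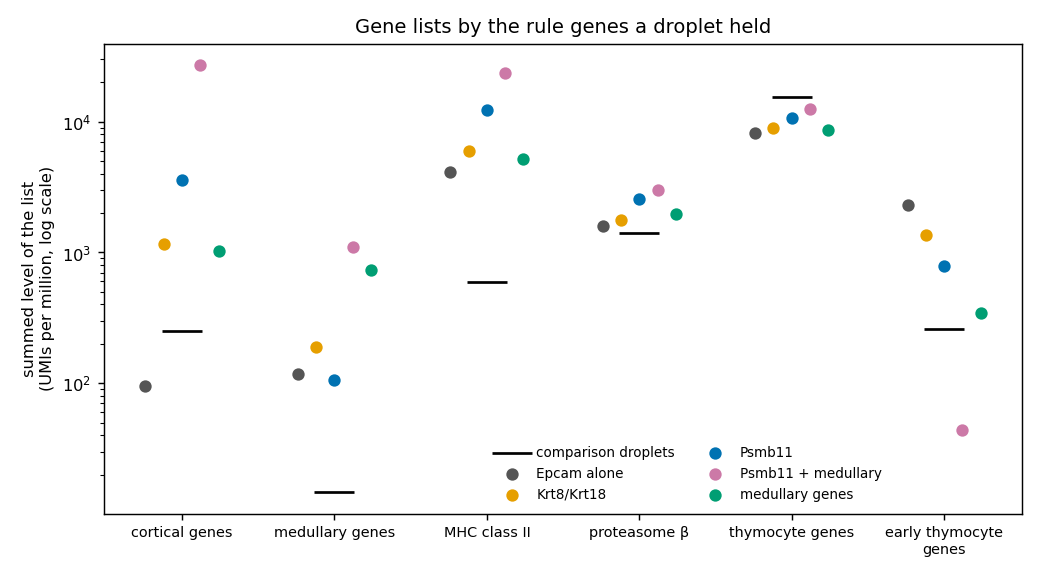
Summed level of 6 gene lists (vertical axis, CPM, log scale) in members divided by the rule genes they held (points, UMIs summed over the droplets of each class; no error bars are drawn) and in the 27291 comparison droplets (black bars). Cortical genes ranged from 95.7 CPM with Epcam alone to 26991 with Psmb11 plus medullary genes (8670 without 1 droplet), and early thymocyte genes, a list taken from the Epcam-alone class, were highest with Epcam alone at 2307.

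The edge of the rule was described by the 226 droplets that had 3 epithelial UMIs and the 108 members that had exactly 4. Cortical genes stood at 311 CPM in the first and 432 in the second, thymocyte genes at 10318 and 8893, and 19.5% and 27.8% of the droplets held Epcam alone. In the 51 members with 8 or more epithelial UMIs, cortical genes stood at 4671 CPM, thymocyte genes at 5120, and 3.92% held Epcam alone.

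Thymocyte RNA was present in nearly all members. Cd8b1, a chain of the CD8 coreceptor, had 412 UMIs in 114 members, and Trbc1, a constant gene of the T cell receptor beta chain, had 2162 UMIs in 176. The share of members with a UMI of either gene was 94.4% in control 1, 80.0% in control 2, 88.0% in cKO 1 and 81.0% in cKO 2, against 97.8%, 96.1%, 96.0% and 94.5% of the comparison droplets. After thinning to 500 UMIs the shares were 77.8%, 51.4%, 73.3% and 44.8% of members and 80.1%, 79.0%, 75.6% and 73.8% of comparison droplets. The libraries numbered 1 thus lay within 3 percentage points of the thymocytes around them, and those numbered 2 well below.

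By level, Cd8b1 and Trbc1 together stood in the members at 40.8% of the comparison droplets of the same library in control 1, 47.4% in control 2, 40.6% in cKO 1 and 56.3% in cKO 2. Droplets with C1q stood at 47.7%, 60.9%, 60.2% and 48.2%, which overlapped the members' values, although 2 of the 4 lay above every member value. The 2 genes did not behave alike: Cd8b1 was at 19.8% to 25.5% and Trbc1 at 51.0% to 72.1%. Across 16 thymocyte genes the ratio ran from 18.5% to 370%, with the median gene at 47.1% to 65.2% per library. Cd8a, Cd4, Satb1, Rag1 and Themis stood at 18.5% to 56.0%, Cd3d and Cd3e at 60.0% to 79.0% and Arpp21 and Dntt at 66.8% to 93.8%, and Ptcra was the highest gene in all 4. The 16 genes were thus not in 1 ratio to the comparison droplets. The Epcam-alone droplets moved with this pattern. Without them Cd8b1 stood at 35.7% and Ptcra at 151% of the comparison level.

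**Figure D4:**
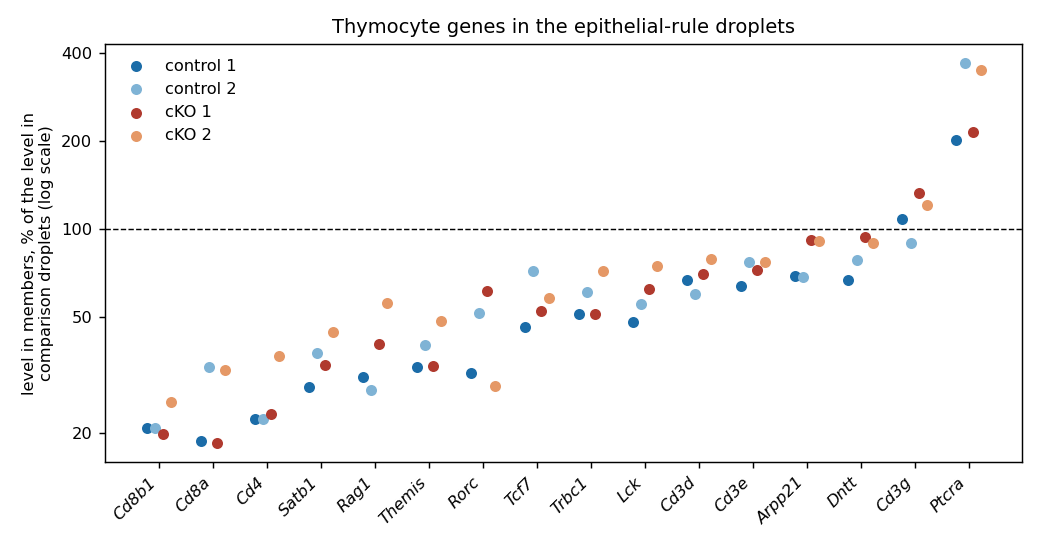
Level of 16 thymocyte genes in the members as a percentage of the level in comparison droplets of the same library (vertical axis, log scale), with 1 point per library; the dashed line marks equal levels. Cd8b1 lay between 19.8% and 25.5% and Ptcra between 202% and 370% in the 4 libraries.

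Thymocyte RNA was found in every class. In members with both Psmb11 and medullary genes, 16 thymocyte genes stood at 12420 CPM against 15533 in the comparison droplets, with a median gene ratio of 84.8%. Of these 283 thymocyte UMIs, 220 lay in the 3 of the 12 droplets with the fewest epithelial UMIs per 10000 (13.96 to 33.8), and the level without them was 6626 CPM. The 3 densest of the 12 (246 to 424 epithelial UMIs per 10000) held 9 thymocyte UMIs in all. In members with Psmb11 the level was 10586 CPM, in those with medullary genes 8622, with Krt8 or Krt18 8891 and with Epcam alone 8248. Of the 222 members, 30 had neither Cd8b1 nor Trbc1. Whether this RNA came from thymocytes held by the epithelial cell, from a second cell in the droplet or from free RNA was not tested.

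The share of epithelial-rule droplets per library overlapped between the genotypes. Members made up 0.829% of the filtered droplets in control 1 (exact 95% interval 0.623 to 1.08) and 0.375% in control 2 (0.261 to 0.521). In cKO 1 they made up 0.892% (0.702 to 1.12) and in cKO 2 0.435% (0.330 to 0.562). The libraries numbered 1 were high and those numbered 2 low in both genotypes. Between libraries of the same number, the cKO share was higher by 0.0626 points in number 1 and 0.0603 in number 2. The mean share was 0.0615 percentage points higher in cKO (exact permutation test over 2 against 2 libraries, two-sided, p = 0.667). The smallest p possible in such a test is 0.333, whatever the values. Neither this test nor that of Cd8b1 and Trbc1 below could therefore separate the genotypes, and no conclusion is drawn from them. The share of members with Psmb11 was 1.64 percentage points lower in cKO, given without a test because Psmb11 is a gene of the rule. The level of Cd8b1 and Trbc1 relative to the comparison droplets was 4.33 points higher in cKO (exact permutation p = 1). Leaving out the Epcam-alone droplets, these last 2 differences (cKO minus control) were 0.759 and −0.0733 points. The share difference turned negative without control 2 (−0.166) or cKO 1 (−0.167), the thymocyte difference without cKO 2 (−3.48), and the Psmb11 difference turned positive without control 1 (14.4) or cKO 2 (0.677). The intervals cover counting error within a library only.

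**Figure D5:**
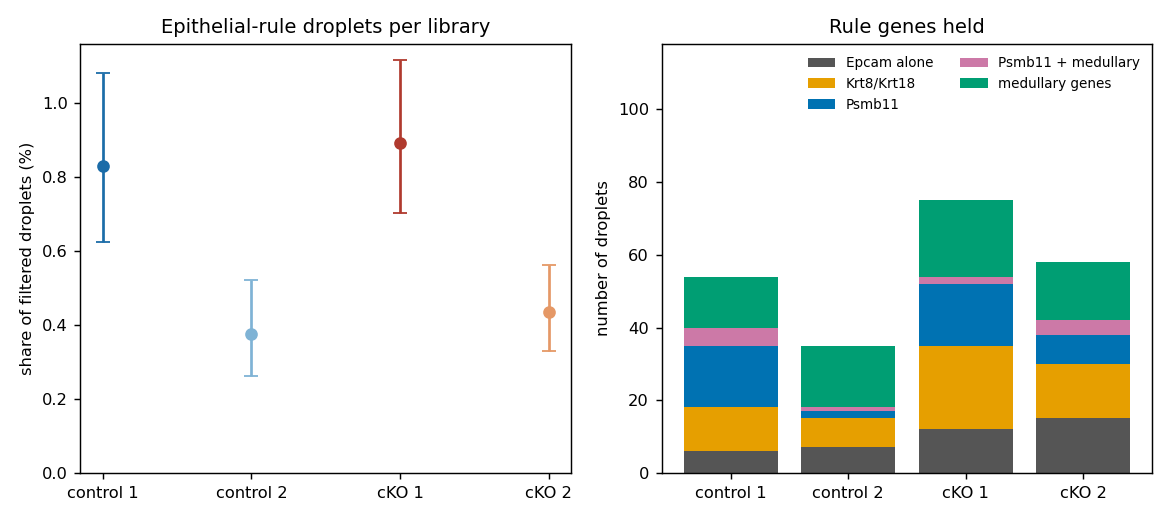
Left, members as a percentage of filtered droplets in each library (points) with exact 95% binomial intervals (bars). Right, number of members per library stacked by the rule genes they held; the libraries numbered 1 had shares of 0.829% and 0.892% and those numbered 2 had 0.375% and 0.435%, in both genotypes.

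Between genotypes, no gene passed the threshold in the members. UMIs were summed per library and 5229 genes entered a quasi-likelihood F test in edgeR. Of these, 0% were called at an adjusted p under 0.05, which does not show that no gene differed. At an unadjusted p under 0.05 there were 255 genes, while DESeq2 called none and had 33. For 34.7% of these genes the 2 groups did not overlap in CPM, so a gene whose groups lie apart is common here. In the comparison droplets, the same test called 206 of 13415 genes. The members with over 10000 UMIs, which are 42 of the 222, supplied 68.3% of the UMIs in these sums. The count of calls was not stable: it was 36 without control 1, 18 without control 2, 49 without cKO 1 and 4 without cKO 2. It was 12 with the top and bottom 2.5% of UMI totals trimmed and 60 with no filter on low counts.

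Tox4, the deleted gene, had 19 UMIs in members of control 1, 17 in control 2, 12 in cKO 1 and 28 in cKO 2, which overlap between genotypes. The assay reads the 3′ ends of transcripts and the position of the Tox4 tags relative to the floxed exons was not analysed here, so this count is not used as a check of the deletion.

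All 6 cortical genes that entered the test had positive log2 fold changes (cKO over control), with a median of 1.16 against 0.01 over all genes tested, of which 51.0% were positive. None was called, and the lowest adjusted p in the list was 0.952. The list's summed level was 1103 CPM in control 1, 546 in control 2, 1142 in cKO 1 and 2079 in cKO 2. Without the cKO 2 droplet with 98 epithelial UMIs, cKO 2 stood at 992, below control 1. The same droplet raised the cKO 2 values of Ctsl and Prss16, although cKO 2 stayed highest in both without it. Ctsl stood at 306, 201, 287 and 1051 CPM, with cKO 2 at 431 without it. Prss16 stood at 48.0, 20.1, 35.9 and 175 CPM, with cKO 2 at 73.5 without it.

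The genes of the rule chose the members, so their differences are given without a test. Ccl21a had a log2 fold change of 1.08, with 92.9 and 108 CPM in the controls and 182 and 228 in cKO. Without that droplet cKO 2 stood at 113 CPM. Aire went the other way, with 10 and 15 UMIs in the controls and 1 and 12 in cKO (log2 fold change −1.37). Psmb11 differed by 0.23 on the log2 scale, Krt8 by −0.04, Krt18 by 0.28 and Epcam by 0.22, each with overlapping libraries.

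Other groups also held no called gene. Of the MHC class II list, 9 genes were tested and 7 had positive fold changes, with a median of 0.48. The 4 members with the most MHC class II UMIs, of which 1 was in control 1, 1 in cKO 1 and 2 in cKO 2, weigh on these values. Without the Epcam-alone droplets, which include 2 of the 4, the list stood at 10451 and 3727 CPM in the controls and at 2549 and 11494 in cKO, so the groups overlapped and cKO 1 was the lowest. Cd74 differed by 0.48 (SE 0.27, edgeR adjusted p = 0.952). Of the 7 proteasome subunits, 6 were positive with a median of 0.09. Only 2 medullary genes had enough counts to be tested, with 1 in each direction, Krt17 at 0.74 (SE 0.48) and Ccl19 at −0.05 (SE 0.39). Krt17 stood at 48.0 and 144 CPM in the controls and 84.7 and 211 in cKO, so the groups overlapped. Of its 87 UMIs in cKO 2, 48 lay in 1 Epcam-alone droplet. Of 22 proliferation genes, the set that the study scored, 19 were tested, 3 were positive and the median was −0.26. The smallest adjusted p of any gene was 0.313, for Serpinb1a, a leading gene of the medullary members. It was singled out after its values were seen, at 92.9 and 140 CPM in the controls and 25.7 and 17.0 in cKO, but 26 of the 31 UMIs of control 1 lay in 1 droplet. Without that droplet control 1 stood at 16.2 CPM, below both cKO libraries.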

How the data were processed

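Libraries were made from thymocytes with the 10x Genomics 3′ kit, version 3 chemistry. The authors counted UMIs with cellranger 6.1.1 on mm10 and deposited filtered matrices of raw UMI counts, 1 per library, with no normalization. All other values were computed here. Library totals ran from 42716798 to 62007453 UMIs, and exact binomial intervals cover counting error only. Counts were summed by gene symbol, and CPM is UMIs per 1000000 over the summed droplets. The members, gene lists and tests were chosen with earlier results of these data known, and the early thymocyte list and the division of members were set after values were seen. No droplet was removed as a doublet, but Scrublet was tried as an alternative (scanpy 1.11.5, expected rate 8%, the highest 5% removed). Genotypes were compared on UMIs summed per library with edgeR 4.0.16 (R 4.3.3; TMM, filterByExpr, genotype as the only term, Benjamini-Hochberg adjustment over all genes tested), with standard errors derived from the fold change and F value, and with DESeq2 1.42.0 as an alternative. The edgeR step was tested on simulated data. The member share and the thymocyte level were compared by an exact permutation test over libraries, and no test is given for genes of the rule. Named genes are the 8 of the rule, Cd8b1, Trbc1, Tox4, and for the lists of epithelial, MHC class II, proteasome and proliferation genes the 2 to 4 with the highest summed CPM, with further genes of these and of the marker lists named for their role. Each library is 1 mouse. Alternatives changed the epithelial threshold, the mitochondrial limit, the trimming of UMI totals, the scaling, the low-count filter and the libraries used. Gene positions are from GENCODE M21 and promoter sequences from RefSeq on GRCm38.p6. One listed tissue-restricted gene was not in the count tables and is not used here.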

Additional observations from a re-analysis of the deposited data

Results flagged for a closer look

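Above the mitochondrial limit, 68 further droplets met the rest of the epithelial rule, a signal in droplets that no comparison of the report uses. They were 19 in control 1, 5 in control 2, 22 in cKO 1 and 22 in cKO 2, and 0.345% (exact 95% interval 0.268 to 0.438) of the 19697 droplets above the limit that passed the gene and UMI filters. Medullary genes without Psmb11 were held by 30 of them, Psmb11 without medullary genes by 16, both by 4, Krt8 or Krt18 alone by 13 and Epcam alone by 5. Their cortical genes stood at 5615 CPM, and their median depth was 1034 UMIs with 14.4% mitochondrial UMIs. Groups of 2 libraries are too small to look for outlying samples.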

How the results depend on the processing

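With 2 libraries a group, the smallest exact permutation p was 0.333, so no share could pass 0.05 and a kept sign says little. The count of called genes, 0, stayed at 0 under 8 of 15 alternatives, DESeq2 among them. It was 3 with a threshold of 3 epithelial UMIs, 12 with the top and bottom 2.5% of UMI totals left out, 60 with no filter on low counts, and 4 to 49 when each library was left out in turn (36 without control 1, 18 without control 2, 49 without cKO 1 and 4 without cKO 2, the lone library taken to vary like the other group). The cause was not tested.

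The difference in member share turned to −0.00509 percentage points at a threshold of 3 UMIs and −0.472 at a mitochondrial limit of 5%, and ran from −0.167 to 0.290 when libraries were left out, with −0.166 without control 2 and −0.167 without cKO 1. The difference in thymocyte RNA turned to −15.5 at the mitochondrial limit of 5%, −10.6 with UMI totals trimmed and −0.0733 without the Epcam-alone droplets (chosen after seeing the data), and ran from −3.48 (without cKO 2) to 12.1. The difference in Psmb11 share turned to 4.76 at a threshold of 3 UMIs, 10.97 at 8, 9.51 at the mitochondrial limit of 5%, 0.759 without the Epcam-alone droplets, 4.86 in members with at most 2 UMIs of Cd8b1 and Trbc1 (also chosen after seeing the data) and 4.94 with droplets thinned to 1000 UMIs. It ran from −17.7 to 14.4, with 14.4 without control 1 and 0.677 without cKO 2. The causes were not tested. The sign was kept under 9 of 13, 7 of 11 and 5 of 13 alternatives.

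The labels number the replicates in each genotype but do not say that a number pairs mice, and same-numbered libraries correlated at 0.034 in their deviations. With the replicate number as a block, 0 genes were called (272 at an unadjusted p under 0.05), and the member share was higher in cKO by 0.0626 points in number 1 and 0.0603 in number 2. Trimming UMI totals would take out 18 members below and 27 above, 16 of the latter with Epcam alone. The removal by Scrublet score would take out 4 members. Depth limits the rarest genes most, such as Foxn1 with 12 UMIs.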

Other observations

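Markers of mimetic cells, the medullary epithelial cells that take on programmes of other tissues, were looked for in the members from lists of 5 to 7 genes. They were rare, and a single droplet held 56.3% of the UMIs of the keratinocyte list, 79.1% of the ciliated, 65.3% of the microfold and 73.0% of the enterocyte-hepatocyte list. Krtdap, a gene of differentiating keratinocytes, had 43 UMIs, all in 1 droplet of cKO 2 with 3293 UMIs that also held 48 UMIs of Krt17, 6 of Krt10 and 4 of Epcam, so this droplet is among those with Epcam alone. Dynlrb2, a dynein light chain of cilia, had 28 of its 30 UMIs in 1 droplet of control 2, with 3 UMIs of Trp73, 2 of Ccdc153, 8 of Krt8 and 6 of Krt18. Ccl20, a chemokine of microfold cells, had 26 of 31 UMIs in another droplet of control 2, with 3 UMIs each of Tnfaip2 and Ccl9. Reg3g, an antimicrobial lectin of intestine, had 127 of 149 UMIs in 1 droplet of control 1 with 25353 UMIs. Of the tuft list, Lrmp accounted for 155 of 159 UMIs and was lower in the members (112 CPM) than in the comparison droplets (149 CPM), while Trpm5, Il25 and Gnb3 had none. The neuroendocrine list, led by Resp18 with 9 UMIs and Insm1 with 8, had 23 UMIs in 13 members, 12 of them members with medullary genes and no Psmb11. The muscle list had 10 UMIs in 5 members, with 5 of Actc1 and 3 of Ckm.

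Tissue-restricted antigens were sparse as well. Csn2, a milk casein, had 26 UMIs in 11 members and was found in 5 of the 19 members with Aire and none of the 56 with Psmb11. Fabp9, a gene of testis, had 16 UMIs in 7 members, and Ins2 had none. These counts are too few to compare between libraries.

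Markers of other cell types stood as follows. The macrophage list, from which the rule removed C1q, had 27 UMIs in 14 members. B cell genes stood at 233 CPM against 356 in the comparison droplets, erythroid genes at 309 against 2625, neutrophil genes at 72.2 against 135 and endothelial genes at 54.2 against 94.2. Neutrophil genes went the other way in cKO 2, at 84.9 CPM against 5.48, and 34 of their 100 UMIs lay in 1 droplet of that library. Fibroblast genes had 7 UMIs in 6 members. Of the 428 erythroid UMIs, 384 lay in 1 Epcam-alone droplet of cKO 1. Genes of proliferation stood at 6721 CPM in the members and 6483 in the comparison droplets. They stood at 7746 in the droplets with Epcam alone and at 5792 in the other members, below the comparison droplets. The highest of these genes over all members were H2afz, a histone variant, at 2167 CPM against 1836, and Hmgb2, a chromatin protein, at 1901 against 2085.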
